A study of Gallus gallus with 12 samples.

Results

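ONECUT1, ONECUT2, ONECUT3, LHX1 and PROX1 are transcription factor genes known for their roles in horizontal cells, and they are described here across the cell classes and stages of the developing chick retina. They were taken by name from the 3 count matrices of the series and are 5 of the 23726 genes listed. The 12 single-cell libraries were made in droplets from the 3′ ends of transcripts (10x Genomics Chromium, version 2). There were 4 of whole retina from embryonic day 18 (E18) and 4 of whole retina from E12. The other 4 were made at E16 from cells selected by their surface protein Thy-1, which enriches retinal ganglion cells (RGCs), 2 of them dorsal and 2 ventral. The embryos of all groups came from specific pathogen free eggs and received no treatment that the labels name. Nothing in the labels ties libraries to separate embryos, so p-values measure the spread between libraries, which may be technical. One label field of the E16 libraries names E18, whereas their titles and protocol give E16, which was used.

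Horizontal cells are inhibitory interneurons that receive input from photoreceptors and feed signals back and forward to photoreceptors and bipolar cells. The ONECUT proteins carry a cut domain and a homeodomain; in mouse, Onecut1 and Onecut2 act downstream of the progenitor factor Foxn4 in making horizontal cells. PROX1, the vertebrate relative of fly prospero, is needed for horizontal cells in mouse, and LHX1, a LIM homeodomain factor, is needed there for their position in the retina. In chick, horizontal cells that hold LHX1 and those that hold the LIM homeodomain factor ISL1 are known as different types, the LHX1 type carrying an axon.

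The members lie on chromosomes 10 (ONECUT1), Z (ONECUT2), 28 (ONECUT3), 19 (LHX1) and 3 (PROX1). The E18 libraries held 7259 to 7683 barcodes each and the E12 libraries 14066 to 14225. Captured transcripts were counted as unique molecular identifiers (UMIs), and the library totals lay between 1737033 and 27655687 UMIs. The lowest totals were those of dorsal E16 replicates 1 and 2, which held 955 and 1357 barcodes. HINTW, a gene on the W chromosome that female birds carry, had no UMI in any E18 library and was present in every E16 and E12 library, so the makeup of the libraries by sex and the stage cannot be told apart. In E16 RGC-like cells HINTW was also higher in the dorsal than in the ventral libraries, by a log2 difference of 0.51 (edgeR adjusted p = 8.30e-14). Any 2 libraries shared at most 2.93% of their barcode sequences.

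Cells were clustered within each stage without the 5 members, and clusters were named from marker genes that did not include them. Horizontal cell-like cells numbered 465, 468, 472 and 491 in the E18 libraries and 431, 408, 413 and 482 in the E12 libraries. Their median depth per library was 1714 to 1797 UMIs at E18 and 1355 to 1537 at E12. Clustering the class again gave 9 clusters at E18 and 8 at E12. At E18, 1 of them, with 99 cells (5.22% ± 1.34 of the class), was led by markers of another retinal class (bipolar cells). At E12, 5 were, with 1276 cells (73.5% ± 3.1), led by genes of bipolar, amacrine or photoreceptor cells or of progenitors, such as MEIS2, NEUROD6, NR2E3 and NEUROG2. The stage values of the members in the class are therefore also given without these clusters, and their levels by types. E18 cluster 1 (364 cells) was led by haemoglobin genes, which mark blood and not a retinal class. It was kept, and values without it are given as well. The types were split by the level of ISL1 in a cluster. ISL1-high clusters held 787 cells at E18 (clusters 0, 6, 7 and 8) and 74 at E12 (cluster 5). ISL1-low clusters held 1010 cells at E18 (clusters 1, 2, 3 and 5) and 384 at E12 (clusters 2 and 7). Whether the clusters led by other markers are doublets, free RNA or immature cells was not tested.

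All 5 members had their highest level in horizontal cell-like cells, at both stages. Levels are given as CPM, the UMIs of a gene in a class per 1000000 UMIs of that class in the same library, as mean ± SD over libraries. Since the genes were chosen as horizontal cell factors, their order over the classes is a description. For ONECUT3 the distance to the rest was wide, with 1121 ± 48 CPM in E18 and 552 ± 25 CPM in E12 horizontal cell-like cells against at most 20.6 CPM in any other group, the 150 oligodendrocyte-like cells of E18. LHX1 was at 685 ± 64 CPM at E18 and 789 ± 54 CPM at E12, against at most 8.41 CPM elsewhere, in E18 bipolar-like cells. ONECUT1, ONECUT2 and PROX1 had bipolar-like cells next in order, at 95.7 ± 13.0 CPM of ONECUT1, 270 ± 9 CPM of ONECUT2 and 748 ± 33 CPM of PROX1 at E18. The libraries of the E18 horizontal, E12 horizontal and next class did not overlap for ONECUT1, ONECUT2, ONECUT3 or PROX1, whereas for LHX1 the E18 and E12 horizontal cell-like libraries overlapped.

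**Figure D1:**
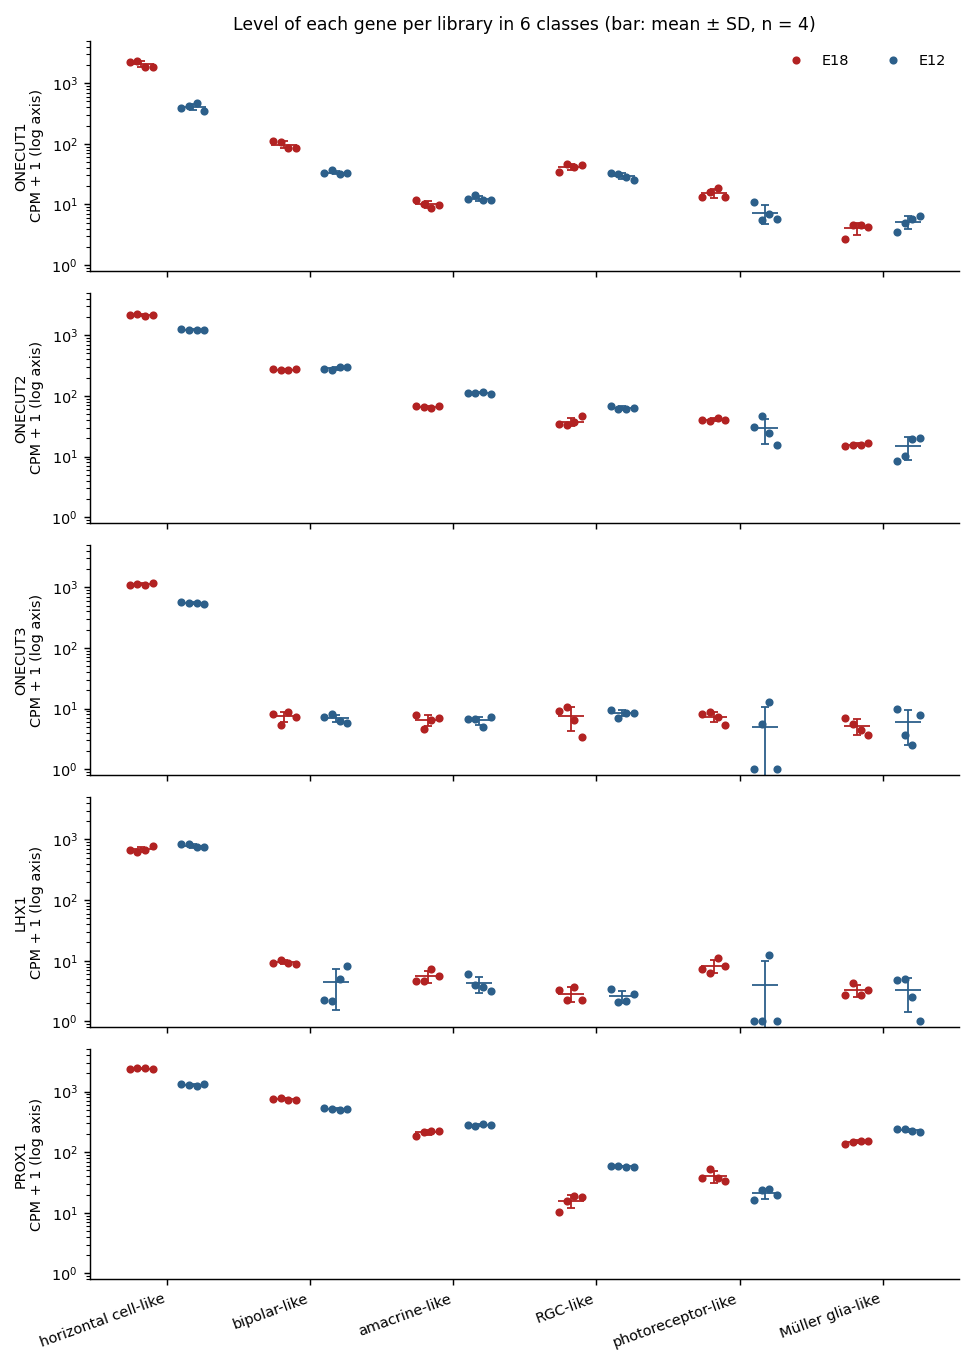
Level of each of the 5 genes (CPM + 1, log axis) in 6 cell classes, with E18 left of E12 in each class. Points are libraries and bars the mean ± SD of 4 libraries, a bar that reaches the lower edge going down to 0 CPM. Horizontal cell-like cells are highest in each panel, and bipolar-like cells stand next for ONECUT1, ONECUT2 and PROX1.

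ONECUT1 had the largest stage difference of the 5 in horizontal cell-like cells. Its levels were 2212, 2305, 1838 and 1872 CPM in the E18 libraries and 392, 420, 462 and 348 CPM in the E12 libraries. Every E18 library lay above every E12 library, and the gene rose by a log2 fold change of 2.22 (SE 0.063, edgeR adjusted p = 1.84e-48). It remained called without the clusters led by markers of another class, at 1.61 (adjusted p = 1.30e-24), and within both types. In ISL1-high cells ONECUT1 averaged 2388 ± 328 CPM at E18 and 900 ± 142 CPM at E12 (log2 1.30, SE 0.14, adjusted p = 1.64e-19). In ISL1-low cells the averages were 1881 ± 220 CPM at E18 and 517 ± 67 CPM at E12 (log2 1.67, SE 0.099, adjusted p = 4.98e-21). ONECUT1 was thus called in each of the 4 fits, with at least 2-fold more at E18. The share of cells with a ONECUT1 UMI, after every cell was thinned to 1000 UMIs, was 85.1% at E18 and 31.3% at E12 (93.6% and 42.3% before thinning). In amacrine-like cells, which serve as background here, it was 0.87% at E18 and 1.04% at E12 after thinning. Before thinning, 95.2% of ISL1-high and 92.3% of ISL1-low cells had a ONECUT1 UMI at E18. At E12 these shares were 73.0% and 45.8%. In the clusters led by other markers the share was 94.9% at E18 and 39.2% at E12.

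ONECUT2, ONECUT3 and PROX1 were also higher at E18, each by less than the 2-fold minimum. ONECUT2 had 2157, 2237, 2106 and 2159 CPM at E18 and 1270, 1238, 1223 and 1217 CPM at E12 (log2 0.68, SE 0.044, edgeR adjusted p = 1.03e-24). ONECUT3 had 1084, 1148, 1077 and 1176 CPM at E18 and 582, 546, 556 and 523 CPM at E12 (log2 0.90, SE 0.054, adjusted p = 1.95e-26). PROX1 had 2361, 2426, 2419 and 2389 CPM at E18 and 1325, 1265, 1247 and 1335 CPM at E12 (log2 0.77, SE 0.043, adjusted p = 4.30e-28). For each of the 3 genes the E18 libraries all lay above the E12 libraries. Without the clusters led by markers of another class the differences were smaller, at 0.27 for ONECUT2, 0.38 for ONECUT3 and 0.46 for PROX1. Within types they were 0.32, 0.50 and 0.59 in ISL1-high cells and 0.42, 0.30 and 0.21 in ISL1-low cells. All of these log2 values had an adjusted p under 0.05 and none reached 2-fold, although scaling by library totals alone, which moved the median gene by 0.13, put ONECUT3 past it at 1.03.

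Over all 7901 genes tested in horizontal cell-like cells, 1725 (21.8%) were called in either direction, 878 (11.1%) higher and 847 (10.7%) lower at E18. Of the 5 members 1 was called higher and none lower, a share close to that background. With no fold minimum 4454 genes (56.4%) had an adjusted p under 0.05, as all 5 members had. The E18 and E12 libraries did not overlap for 3940 genes (49.9%) and for 4 of the 5 members. For the other classes such a share is not given, so a lack of overlap there is a description only. Without the clusters led by other markers 1230 of 6364 genes were called (19.3%). In ISL1-high cells 752 of 3324 were called (22.6%) and in ISL1-low cells 1065 of 4879 (21.8%).

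LHX1 was the member that went apart between the types. Over the whole class it had 675, 620, 675 and 772 CPM in the E18 libraries and 836, 835, 739 and 744 CPM in the E12 libraries. E18 library 4 overlapped the E12 range, and the log2 fold change of -0.33 (SE 0.058, edgeR adjusted p = 9.74e-07) was below the 2-fold minimum. It had, without the clusters led by markers of another class, 683, 629, 690 and 774 CPM at E18 and 1231, 1111, 919 and 899 CPM at E12. The stages then did not overlap, and the log2 fold change was -0.80 (SE 0.081, adjusted p = 5.84e-13), still under 2-fold. In ISL1-high cells LHX1 fell, with 6.28, 3.15, 0 and 17.6 CPM at E18 and 991, 740, 816 and 597 CPM at E12 (log2 -6.79, SE 0.36, adjusted p = 1.03e-76). In ISL1-low cells it had 1114, 1042, 1120 and 1289 CPM at E18 and 1267, 1196, 948 and 961 CPM at E12, overlapping ranges (log2 -0.13, SE 0.085, adjusted p = 0.21). The difference between these 2 fits was not tested, and the E12 ISL1-high values rest on 15 to 25 cells per library.

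Counted by cells, 6 of 787 E18 ISL1-high cells had an LHX1 UMI (0.762%, exact 95% interval 0.280 to 1.65), at a median of 1610 UMIs per cell. Of the 74 E12 ISL1-high cells 47 had one (63.5%, 51.5 to 74.4), at a median of 1440.5 UMIs. The share per library was 0.739% ± 0.615 at E18 and 63.0% ± 15.5 at E12 (two-sided exact permutation p = 0.0286, the smallest that 4 against 4 libraries allow). E18 amacrine-like cells, with medians of 2834 to 3026.5 UMIs, had an LHX1 UMI in 1.40% of cells. Their LHX1 level of 4.59 ± 1.25 CPM lay within the range of the E18 ISL1-high libraries, and whether either is background was not tested. E12 amacrine-like cells, at 1445 to 1604 UMIs, had one in 0.510%. Of the E12 ISL1-high cells, 45 of 74 held UMIs of both LHX1 and ISL1 (60.8%). In ISL1-low cells 863 of 1010 at E18 (85.4%, median 1921 UMIs) and 274 of 384 at E12 (71.4%, median 1308 UMIs) had an LHX1 UMI.

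**Figure D2:**
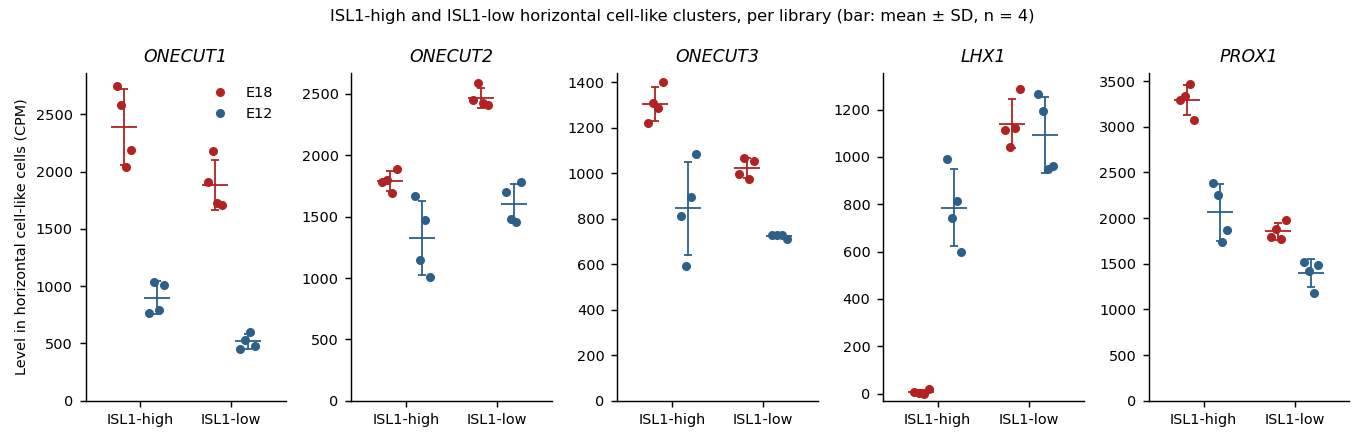
Level of each gene (CPM) in ISL1-high and ISL1-low horizontal cell-like cells, E18 left of E12, with points for libraries and bars for mean ± SD (4 libraries each). LHX1 in ISL1-high cells lies at 6.76 ± 7.68 CPM at E18 and 786 ± 164 CPM at E12, and ONECUT1 is higher at E18 in both types.

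At E18 the types also differed in the other members, which is given as a description because clusters define the types. PROX1 averaged 3296 ± 166 CPM in ISL1-high cells and 1857 ± 95 CPM in ISL1-low cells. ONECUT1 and ONECUT3 were also higher on average in the ISL1-high cells, at 2388 ± 328 and 1303 ± 73 CPM, against 1881 ± 220 and 1022 ± 44 CPM in ISL1-low cells, with overlapping libraries for ONECUT1. ONECUT2 went the other way, with 1790 ± 83 CPM in ISL1-high cells and 2468 ± 82 CPM in ISL1-low cells. The ranges of PROX1, ONECUT2 and ONECUT3 did not overlap between the types, and the share of all genes without such overlap is not given here.

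Single E18 clusters had distinct levels of the members. Cluster levels with an SD are means over libraries, and those without one are pooled over them. Cluster 0, the ISL1-high cluster with most cells (612), held 3459 ± 223 CPM of PROX1 and 4.0 ± 3.3 CPM of LHX1. Cluster 7 (70 cells), led by EGFR, a growth factor receptor, stood out by its ONECUT2, at 499 ± 69 CPM, against 1945 ± 101 CPM in cluster 0, while its ONECUT1 was 2259 ± 442 CPM. Cluster 8 (21 cells), led by the receptor kinase gene LTK, also had little ONECUT2, at 979 ± 232 CPM, but held as few as 4 cells per library. Its LHX1 was 77.3 ± 154.6 CPM, from 4 UMIs in 1 library (4.76% of its cells had one). Cluster 6 (84 cells), led by CPNE9, had 3067 ± 209 CPM of PROX1 and an LHX1 UMI in 0 of 84 cells, which allows up to 3.57% of cells with a UMI, not of cells that express the gene, and a level of up to 22.9 CPM.

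Among the ISL1-low clusters, LHX1 was highest in cluster 2 (326 cells), at 1433 ± 186 CPM, and lowest in cluster 1 (364 cells), at 886 ± 61 CPM, where it still was in 79.4% of cells. Cluster 1 is the one led by haemoglobin genes. Without it the ISL1-low cells had 1221, 1161, 1274 and 1474 CPM of LHX1 at E18, against the 1267, 1196, 948 and 961 CPM at E12 given above (log2 0.04, edgeR adjusted p = 0.73), and ONECUT1 was at 1.66. With it and the clusters led by other classes left out, the stage differences over the class were 1.64 for ONECUT1, 0.23 for ONECUT2, 0.40 for ONECUT3, -0.92 for LHX1 and 0.57 for PROX1. Cluster 5 (86 cells), led by OXT, the oxytocin-family peptide gene, and by DCX, a microtubule protein of young neurons, had the lowest ONECUT1 and ONECUT3 of the 9 clusters. Its values were 1055 ± 173 CPM of ONECUT1 and 636 ± 110 CPM of ONECUT3, against 1967 ± 163 and 1041 ± 53 CPM in cluster 3. Its LHX1 was 1322 ± 64 CPM, and its ISL1 was 462 CPM, against 26.8, 34.5 and 26.1 CPM in clusters 1, 2 and 3. Among all E18 ISL1-low cells 59 had an ISL1 UMI, and 49 had UMIs of both LHX1 and ISL1. Cluster 4, the one led by bipolar markers, had LHX1 at 536 ± 138 CPM and ISL1 at 1839 CPM.

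**Figure D3:**
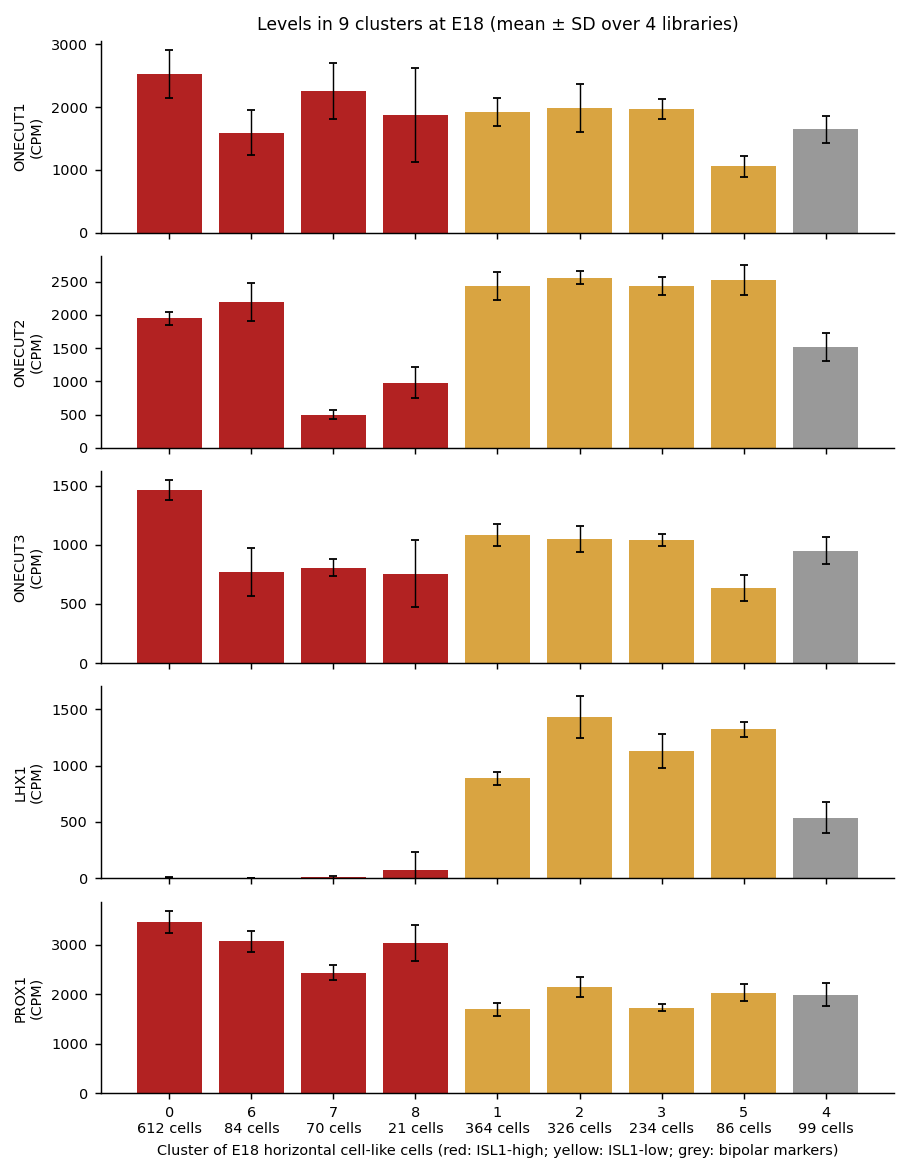
Level of the 5 genes (CPM, bars for the mean and lines for ± SD over 4 libraries) in the 9 clusters of E18 horizontal cell-like cells, coloured as ISL1-high, ISL1-low or led by bipolar markers. LHX1 is near 0 in clusters 0, 6 and 7, and ONECUT2 is low in cluster 7.

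Combinations were counted as the members with a UMI in a cell thinned to 1000 UMIs, so a missing member may only be undetected. Of E18 horizontal cell-like cells 45.5% ± 2.7 held all 3 ONECUT genes, against 10.2% ± 1.5 of E12 cells. At least 1 ONECUT gene was found in 99.0% ± 0.1 at E18 and 86.3% ± 3.6 at E12, and at least 1 together with PROX1 in 88.0% ± 1.3 at E18 and 61.6% ± 3.2 at E12. None of the 5 was found in 0.0581% at E18 and 2.56% at E12. For each of these the 4 E18 libraries lay on one side of the 4 E12 libraries, with p = 0.0286 by the two-sided exact permutation test and 0.0348 after adjustment over 28 shares. All 3 ONECUT genes were, without the clusters led by markers of another class, in 49.8% ± 2.2 of E18 and 19.1% ± 1.7 of E12 cells, at least 1 in 99.2% ± 0.1 and 92.5% ± 3.4, and at least 1 with PROX1 in 86.8% ± 2.5 and 72.9% ± 6.3 (adjusted exact permutation p = 0.0444 for each). None of the 5 was then found in 0.184% of E18 and 1.83% of E12 cells, which did not pass (adjusted exact permutation p = 0.16).

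The most frequent E18 combination was the 3 ONECUT genes with PROX1 and without LHX1, in 27.3% ± 2.8 of E18 and 3.33% ± 1.45 of E12 cells. ONECUT1 with ONECUT2 and PROX1 followed, in 14.7% ± 1.1 at E18 and 4.44% ± 1.15 at E12. All 5 members together were in 13.3% ± 0.7 at E18 and 4.24% ± 0.83 at E12. Combinations without ONECUT1 led at E12. ONECUT2 with LHX1 and PROX1 was in 1.5% ± 0.2 of E18 and 9.84% ± 1.32 of E12 cells, and ONECUT2 with PROX1 in 2.29% ± 1.11 and 9.30% ± 1.11 of them. Of the 28 shares compared, 23 had an adjusted p under 0.05. ONECUT1 with ONECUT2, LHX1 and PROX1 was in 7.97% ± 1.99 of E18 and 5.44% ± 1.29 of E12 cells, which passed (adjusted exact permutation p = 0.0348), but its direction turned without thinning, and also without the clusters led by other markers. The 5 that did not pass included ONECUT2 with ONECUT3 and PROX1, in 4.38% ± 1.24 of E18 and 6.77% ± 1.70 of E12 cells (adjusted exact permutation p = 0.123). Of the 28 shares 18 passed without the clusters led by other markers. The 3 ONECUT genes with PROX1 were then in 29.0% ± 2.2 of E18 and 5.34% ± 2.68 of E12 cells, all 5 members in 14.4% ± 1.9 and 9.51% ± 2.21, and ONECUT2 with LHX1 and PROX1 in 2.07% ± 0.22 and 11.1% ± 2.4. ONECUT2 with PROX1, in 2.55% ± 0.73 of E18 and 6.24% ± 4.00 of E12 cells, no longer passed (adjusted exact permutation p = 0.145).

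LHX1 and ISL1 were largely found in different cells at E18. Both had a UMI in 1.78% ± 0.68 of E18 and 7.97% ± 0.53 of E12 cells (two-sided exact permutation p = 0.0286, adjusted 0.0348). ISL1 without LHX1 was in 43.2% ± 1.3 of E18 and 8.84% ± 1.86 of E12 cells, and LHX1 without ISL1 in 32.7% ± 1.4 and 42.0% ± 2.4 of them. Neither was detected in 22.3% ± 2.2 of E18 and 41.2% ± 2.8 of E12 cells. Within ISL1-high clusters both were detected in 0.633% ± 0.753 at E18 and 53.2% ± 9.3 at E12, with the same exact permutation p of 0.0286 but 0.086 after adjustment over 27 shares. Without the clusters led by other markers the share with both was 1.28% ± 0.29 at E18 and 12.2% ± 2.4 at E12, that with ISL1 and no LHX1 43.4% ± 1.7 and 9.03% ± 2.60, and that with LHX1 and no ISL1 34.5% ± 2.2 and 48.9% ± 8.4. Neither was detected in 20.8% ± 3.3 of E18 and 29.9% ± 3.7 of E12 cells there, which did not pass (adjusted exact permutation p = 0.084).

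**Figure D4:**
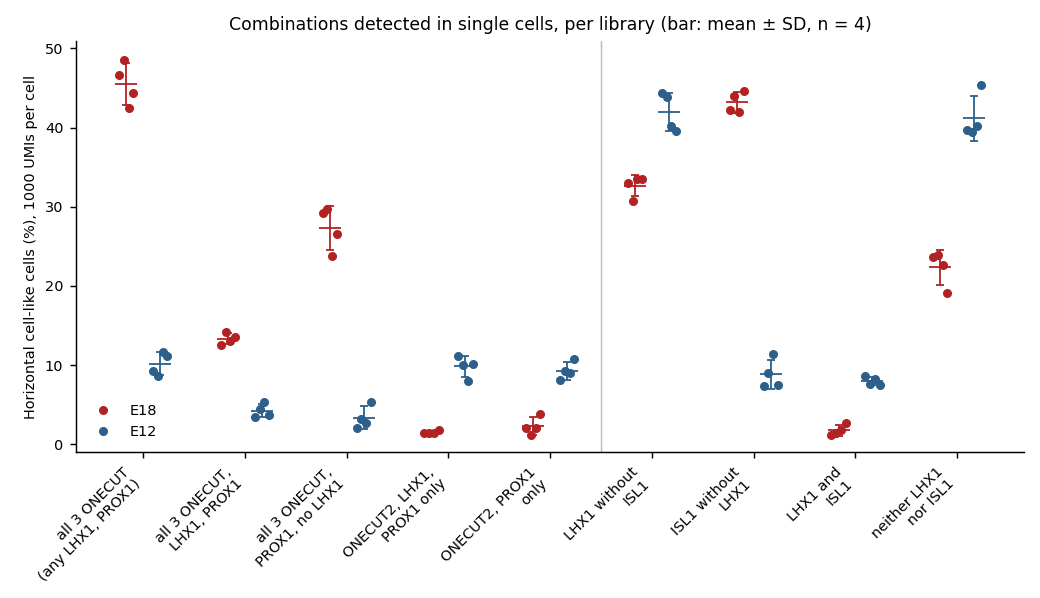
Share of horizontal cell-like cells (percent) with each of 9 combinations of the 5 genes after thinning to 1000 UMIs, E18 beside E12, with points for libraries and bars for mean ± SD of 4 libraries. The combination of 3 ONECUT genes and PROX1 stands at 27.3% at E18 and 3.33% at E12, and combinations without ONECUT1 are higher at E12.

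In bipolar-like cells, the excitatory interneurons that pass photoreceptor signals to RGCs, ONECUT1 rose and came almost wholly from 1 cluster. The class had 109.6, 104.1, 84.0 and 85.2 CPM in the E18 libraries and 31.4, 35.5, 30.6 and 31.7 CPM in the E12 libraries, with no overlap (log2 1.47, SE 0.14, edgeR adjusted p = 3.09e-10). E18 cluster 5, of 703 of the 11125 cells and 1 of 27 bipolar-like clusters, held 84.5% of the ONECUT1 UMIs of the class. It had 1663, 1579, 1299 and 1196 CPM of ONECUT1 in the 4 libraries, against 13.5 to 18.9 CPM in the other bipolar-like cells, and a UMI in 80.8% of its cells. The next cluster was at 94.9 CPM. The genes that led cluster 5 included TPBGL, SALL1 and TAGLN3. Of the bipolar markers it had OTX2 at 2007 CPM (2170 CPM in the other bipolar-like cells) and GRIK1, a glutamate receptor that marks OFF bipolar cells in mouse, at 1897 (668), whereas ISL1 was at 47.5 (1682), VSX1 at 637 (1686) and TRPM1 at 14.4 (219). Of 11 bipolar markers 8 reached 50 CPM there and 11 in the other bipolar-like cells. Of 22 horizontal cell markers other than the members 5 reached 50 CPM there and 7 in the other bipolar-like cells. These 5 were NDRG1 at 669 CPM (721), CALB2 at 171 (504), SEPT4 at 114 (128), TPM3 at 94.9 (113) and TFAP2B at 57.4 (40.3), and RET was at 0 (1.85). LHX1 was at 11 and PROX1 at 350 CPM in cluster 5. When the 5 members were allowed into clustering and naming, 698 of these 703 cells were left unnamed and ONECUT1 in bipolar-like cells turned to -1.41 (adjusted p = 9.40e-08), so the rise rests on which class this cluster is given to.

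PROX1 and ONECUT2 were spread widely over bipolar-like cells. PROX1 had 738.7, 796.7, 729.8 and 727.6 CPM at E18 and 534.6, 515.7, 492.9 and 522.6 CPM at E12 (log2 0.44, SE 0.042, adjusted p = 3.10e-10), without overlap and under 2-fold. It reached 100 CPM in 21 of the 27 E18 clusters, with a median of 718 CPM and a range of 35.1 to 1761 CPM. ONECUT2 reached 100 CPM in 19 of them and was highest in cluster 1 (871 cells, led by CALB1 and NMB), at 781 ± 49 CPM, where PROX1 was 1325 ± 62 CPM. Cluster 23 (163 cells) had 735 ± 180 CPM of ONECUT2 and 1771 ± 325 CPM of PROX1. Over the class ONECUT2 had 270 ± 9 CPM at E18 and 283 ± 19 CPM at E12, overlapping ranges (log2 -0.16, adjusted p = 0.015).

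LHX1 and ONECUT3 stayed low in bipolar-like cells. LHX1 had 135 UMIs in all at E18 and 11 at E12, 8.41 ± 0.68 and 3.44 ± 2.90 CPM (log2 1.19, SE 0.41, adjusted p = 0.013). It passed the test, but 1.20% of E18 bipolar-like cells had a UMI, no more than the 1.40% of E18 amacrine-like cells, and the call was lost without E12 replicate 1 (0.92, adjusted p = 0.078) or E12 replicate 2 (0.90, adjusted p = 0.085). ONECUT3 had 6.43 CPM at E18 and 5.90 CPM at E12 (adjusted p = 0.96). No cluster reached 100 CPM of either gene. Of all 10075 genes tested in bipolar-like cells, 2201 (21.8%) were called, against 2 of the 5 members, ONECUT1 and LHX1.

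In amacrine-like cells, inhibitory interneurons of the inner retina, no member reached the 2-fold minimum, while 2315 of 11892 genes (19.5%) did. ONECUT2 had 67.9, 64.3, 61.3 and 65.9 CPM at E18 and 110.4, 112.3, 113.3 and 108.4 CPM at E12 (log2 -0.98, SE 0.046, edgeR adjusted p = 5.32e-13). The stages did not overlap, and the change was just under 2-fold and past it at -1.03 with no filter on low counts. PROX1 had 210.5 ± 18.7 CPM at E18 and 280 ± 9 CPM at E12 (log2 -0.61, adjusted p = 1.03e-09), and ONECUT1 9.18 and 11.5 CPM (log2 -0.52, adjusted p = 0.0015). LHX1 (adjusted p = 0.28) and ONECUT3 (0.43) did not pass.

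Within E18 amacrine-like cells PROX1 was concentrated in few of the 66 clusters. It reached 100 CPM in 15 of them, with a median over clusters of 23.6 CPM. The 4 highest were cluster 53, led by PVALB, at 2120 ± 164 CPM (38 cells), cluster 55, led by TGFB2 and C1QL2, at 1934 ± 81 CPM (36 cells), cluster 56, led by RBM24, at 1888 ± 393 CPM (31 cells), and cluster 1, led by CNTFR and PKIB, at 1728 ± 96 CPM (389 cells). In these 4 clusters between 95.1% and 100% of cells had a PROX1 UMI, but LHX1, ONECUT1 and ONECUT3 stayed at or under 33.5, 49.9 and 24.7 CPM in every amacrine-like cluster. ONECUT2 reached 100 CPM in 6 clusters, at most 166 CPM, in cluster 1.

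In RGC-like cells PROX1 fell, to 9.27, 14.5, 17.9 and 17.0 CPM in the E18 libraries, against 59.1, 58.0, 55.2 and 56.8 CPM in the E12 libraries (log2 -2.14, SE 0.17, edgeR adjusted p = 1.27e-14). ONECUT2 had 36.4 ± 5.9 CPM at E18 and 62.4 ± 3.9 CPM at E12 (log2 -0.94, SE 0.13, adjusted p = 4.07e-08), without overlap and under 2-fold in this fit, though past it without E18 replicate 4, at -1.06. ONECUT1 had 40.8 ± 5.4 CPM at E18 and 28.3 ± 3.3 CPM at E12 (log2 0.36, adjusted p = 0.036), and ONECUT3 6.43 and 7.40 CPM (adjusted p = 0.38). LHX1, with 6 UMIs at E18 and 28 at E12, was not tested. Of 10116 genes 1880 (18.6%) were called and of the 4 members tested 1. Among the 12 E18 clusters of this class ONECUT1 was highest in a cluster of 38 cells led by NTS and EOMES, at 202 ± 102 CPM, and ONECUT2 was 80.9 ± 35.3 CPM there.

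The E16 RGC-enriched libraries gave a finer view of RGC-like cells, in 46 clusters. ONECUT1 reached 100 CPM in 6 of them, ONECUT2 in 2, ONECUT3 in 1, and LHX1 and PROX1 in none (at most 0.66 and 14.7 CPM). The 1 cluster with ONECUT3 had all 3 ONECUT genes, at 535 CPM of ONECUT1, 350 CPM of ONECUT2 and 652 CPM of ONECUT3, and no UMI of LHX1 or PROX1, which allows up to 29.2 CPM of each. It held 36 cells, with 1 and 0 from dorsal and 23 and 12 from ventral libraries, and 23.4% of the ONECUT3 UMIs of the class. In ventral replicates 1 and 2 its ONECUT3 was 569 and 856 CPM, against 6.76 and 8.06 CPM in the other RGC-like cells of the same libraries. Its RGC markers were mostly lower than in the other RGC-like cells, with RBPMS2 at 389 CPM (1279 CPM in the others), POU4F1 at 87.6 (1004) and EBF3 at 107 (1658). THY1 was at 846 (1120) and NEFL at 739 (902). Higher were 2 of the 14 markers, GAP43 at 1177 (756) and SLC17A6, the vesicular glutamate transporter, at 214 (65.3). Of the 14 RGC markers 11 reached 50 CPM there and 14 in the other RGC-like cells. All 36 cells stayed RGC-like when the 5 members were allowed into clustering and naming. No RGC type is assigned to them here. Their median doublet score was 0.133. The next cluster in ONECUT3, at 59.3 CPM, was led by NTS and EOMES (113 cells) and had 160 ± 44 CPM of ONECUT1.

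**Figure D5:**
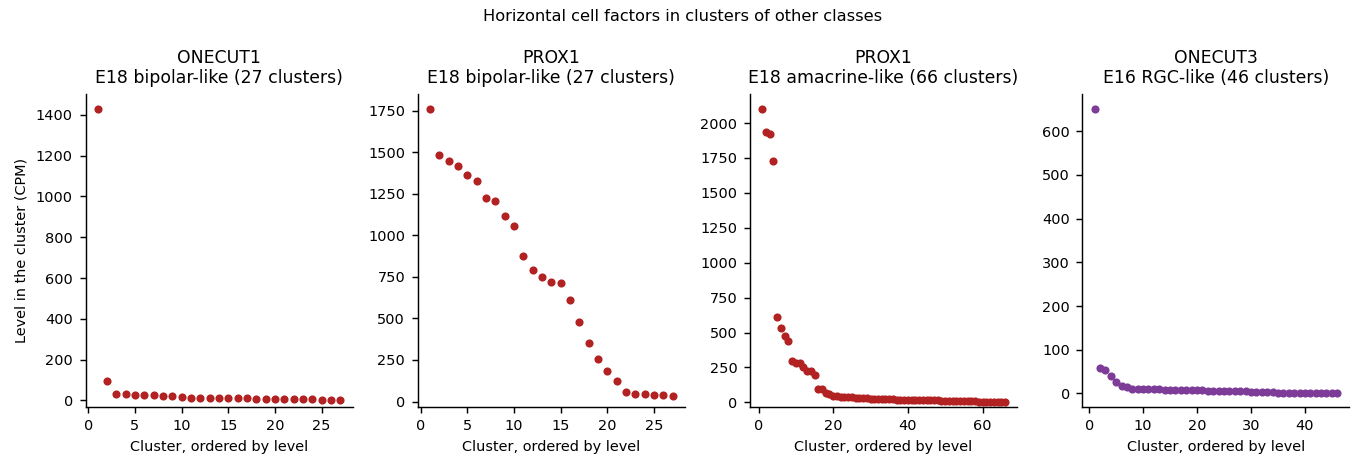
Clusters ranked by level (CPM) for ONECUT1 and PROX1 in the 27 E18 bipolar-like clusters, PROX1 in the 66 E18 amacrine-like clusters and ONECUT3 in the 46 E16 RGC-like clusters. ONECUT1 and ONECUT3 are each high in 1 cluster, PROX1 in 15 amacrine-like clusters at 100 CPM or more, and PROX1 in most bipolar-like clusters.

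No member passed the test between dorsal and ventral E16 libraries. In RGC-like cells ONECUT1 had 31.6 and 27.5 CPM in dorsal and 36.7 and 38.3 CPM in ventral libraries (log2 -0.37, SE 0.14, edgeR adjusted p = 0.060). The ranges did not overlap, but 2 against 2 libraries allow no exact permutation p below 0.333. ONECUT2 (log2 -0.23, SE 0.14), ONECUT3 (-0.16, SE 0.25) and PROX1 (-0.60, SE 0.65) had adjusted p-values of 0.28, 0.74 and 0.60. LHX1, with 1 UMI in 7713 cells, was not tested. Over all genes 1866 of 11887 (15.7%) were called in RGC-like cells. In amacrine-like cells 115 of 7103 (1.62%) were called, and of the members ONECUT2 alone could be tested (log2 0.01, SE 0.33, adjusted p = 1.00), at 64.2 ± 14.6 CPM in dorsal and 60.3 ± 5.8 CPM in ventral libraries. PROX1 in these amacrine-like cells, which passed through Thy-1 selection, was 6.39 ± 2.68 CPM in dorsal and 9.18 ± 1.60 CPM in ventral libraries.

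In photoreceptor-like and Muller glia-like cells few members were expressed at a level that could be tested. In photoreceptor-like cells ONECUT2 had 39.5 ± 2.0 CPM at E18 and 28.2 ± 13.1 CPM at E12 (edgeR adjusted p = 0.97), and PROX1 39.5 ± 9.0 and 20.0 ± 3.8 CPM (adjusted p = 0.23). In Muller glia-like cells PROX1 had 148 ± 8 CPM at E18 and 228 ± 15 CPM at E12, lower by a log2 of 0.41 on the fitted scale and under 2-fold (adjusted p = 1.35e-06), and ONECUT2 did not pass (adjusted p = 0.21). Of 7435 genes in photoreceptor-like and 9670 in Muller glia-like cells, 2115 (28.4%) and 2728 (28.2%) were called, against none of the 2 members tested in each. Among progenitors, present in E12 libraries, PROX1 was at 401 ± 23 CPM in cycling and 376 ± 19 CPM in neurogenic progenitor-like cells, and ONECUT2 at 157 ± 17 and 165 ± 22 CPM. These levels of PROX1 lay below those of E12 bipolar-like cells and above those of E12 amacrine-like cells, without overlap.

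The stage change differed between horizontal cell-like cells and other classes for most members. Against amacrine-like cells all 5 differed, from a log2 difference of 2.68 for ONECUT1 (edgeR adjusted p = 3.10e-81) to -0.69 for LHX1 (adjusted p = 0.0048), as 34.6% of 11114 genes did. Against RGC-like cells ONECUT1 (1.83), ONECUT2 (1.59), ONECUT3 (1.22) and PROX1 (2.87) differed, as did 36.5% of 9041 genes, though ONECUT3 no longer passed without the clusters led by other markers (0.75, adjusted p = 0.096). Against bipolar-like cells ONECUT2 (0.84) and LHX1 (-1.51) differed, but the LHX1 value rests on 11 UMIs in E12 bipolar-like cells. ONECUT1 (0.76, edgeR adjusted p = 5.79e-05) and PROX1 (0.33) differed with all horizontal cell-like clusters only, a fit in which 36.4% of 9063 genes differed. Without the clusters led by other markers ONECUT1 was 0.19 (adjusted p = 0.51) and PROX1 0.06 (adjusted p = 0.62). In that fit 1817 of 8999 genes differed. Both ONECUT1 values depend on E18 bipolar-like cluster 5 (703 cells), which held 84.5% of the ONECUT1 UMIs of its class. The bipolar-like change itself reversed when these cells left the class, so a like change in the 2 classes is not shown. Against Muller glia-like cells ONECUT1 (2.39) and PROX1 (1.12) differed, as did 46.6% of 9308 genes. Without TMM scaling ONECUT2 (0.67, edgeR adjusted p = 0.031) and ONECUT3 (1.31, adjusted p = 0.013) did too. Muller glia-like cells held few UMIs of ONECUT1 (36 at E18, 12 at E12) and ONECUT3 (50 and 15). Neither gene was tested for stage in that class alone. Against photoreceptor-like cells none of the 5 did (edgeR adjusted p 0.148 to 0.777), whereas 35.5% of 8942 genes did. E12 photoreceptor-like cells held between 2 (LHX1) and 23 (ONECUT2) UMIs of each member, too few to show that the changes are alike.

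Between E12 cells with and without a HINTW UMI, the member that passed the test was not the same in the 2 sets of clusters compared. ONECUT2 lies on the Z chromosome, of which male birds carry an extra copy, and ONECUT1 on chromosome 10. Over all E12 horizontal cell-like cells ONECUT2 was lower in those with a HINTW UMI than in those without one from the same libraries, some of which may carry the gene undetected (log2 -0.44, edgeR adjusted p = 4.21e-08), as 25 of 5583 genes (0.448%) differed in either direction. ONECUT1 (-0.38, adjusted p = 0.061), ONECUT3 (-0.17, 0.77), LHX1 (-0.15, 0.73) and PROX1 (-0.09, 0.85) did not pass. Without the clusters led by other markers ONECUT2 had a similar value of -0.41 but did not pass (edgeR adjusted p = 0.067). ONECUT1 passed there, at -0.86 (adjusted p = 0.0063), as 12 of 1734 genes did in either direction. That fit holds fewer cells, and the difference between the 2 fits was not tested. Both counts of genes that differed may include HINTW, the gene by which the cells were split. With E12 cells without a HINTW UMI alone, the stage differences in horizontal cell-like cells were 2.1 for ONECUT1, 0.54 for ONECUT2, 0.84 for ONECUT3, -0.38 for LHX1 and 0.73 for PROX1.

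A list drawn up for horizontal cell formation, which also holds factors of other classes, included genes that fell at E18 in horizontal cell-like cells. Of its 19 genes 15 were tested, 1 was higher and 8 lower (11.1% and 10.7% of all genes). The median log2 fold change was -1.31 against 0.00 over all genes. Without the clusters led by other markers 13 were tested, 1 was higher and 5 lower, with a median of -0.77. Of all 6364 genes in that fit 704 were higher and 526 lower. ISL1 rose, to 1461 ± 43 CPM at E18, against 322 ± 24 CPM at E12 (log2 2.05), and by 1.05 without those clusters. It averaged 3555 ± 86 CPM at E18 and 2665 ± 589 CPM at E12 in ISL1-high cells. In ISL1-low cells it was lower on average at E18, at 63.1 ± 14.1 against 168.6 ± 76.7 CPM. ISL1-high cells made up 41.5% of the class at E18 and 4.31% at E12. The clusters led by other markers, which were given no type, held 5.22% of the class at E18 but 73.5% at E12. Without them there were 787 ISL1-high and 1010 ISL1-low cells at E18, and 74 and 384 at E12. ISL1 also helped to name the class, split the types, and lies on the Z chromosome. OTX2, a factor of photoreceptors and bipolar cells, fell to 78.0 ± 17.0 CPM at E18, against 549 ± 30 CPM at E12 (log2 -2.93, and -2.07 without those clusters). BHLHE22 (log2 -5.29), MEIS2 (-4.60) and PRDM13 (-2.46), factors of amacrine cells, fell too, and without those clusters they were at -5.86, -3.56 and -1.72. PAX6, the eye field factor, fell by 1.43 on the log2 scale (-1.62 without those clusters). Of the genes called lower, PTF1A, TFAP2A, OTX2, PAX6, MEIS2 and NEUROD4 were also markers used to name classes or clusters led by another class. The values of these genes, with and without those clusters, are therefore not free of that choice.

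Of 20 LIM homeodomain and cofactor genes 11 were tested, none was higher and 4 were lower (median log2 -0.56), where 10.7% of all genes were called lower. LHX3, a bipolar factor and one of the bipolar markers used for naming, fell to 14.9 ± 1.2 CPM at E18, against 92.6 ± 24.6 CPM at E12 (log2 -2.76). It was too low to be tested without the clusters led by other markers. In that fit 1 of 7 was called, LMO4 at -1.32, against 19.3% of all genes. Of 6 genes of the cut and prospero families 3 were tested and 2 were lower (median -1.10), against the same 10.7%. CUX1, a cut homeodomain factor, fell to 121 ± 15 CPM at E18, against 237 ± 22 CPM at E12 (log2 -1.10), and was not called without those clusters, at -0.68.

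The genes most like each member over 17 groups of class and stage were ranked by Pearson's correlation of log2(CPM + 1), as a description. For ONECUT1 they were PLEKHD1 (0.93), NOP2 (0.90), ATP8B3 (0.89) and COL21A1 (0.89), and for ONECUT2 CHST11 (0.92), BTBD17 (0.90), TMEM132A (0.88) and N4BP2 (0.88). For ONECUT3 they were TMEM182L (0.97), SOHYE2L (0.96), GFRA3 (0.96) and FGF19 (0.96). LHX1 shared FGF19 (0.97) and SOHYE2L (0.97) with it, and SLC4A5 (0.96) was also among its most alike genes. FGF19, a secreted growth factor gene, had 873 CPM in E18 and 883 CPM in E12 horizontal cell-like cells and at most 7.10 CPM elsewhere. For PROX1 they were FCF1 (0.92), ZEB2 (0.89), DTYMK (0.88) and CNOT2 (0.87). Between members, LHX1 and ONECUT3 were the most alike (0.92) and ONECUT1 and PROX1 the least (0.46). The groups share libraries, and without the 2 horizontal cell-like groups LHX1 and ONECUT3 stood at 0.01 over 15 groups.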

How the data were processed

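The authors deposited unnormalized counts of UMIs for each gene in each barcode, as whole numbers. Per the submitters' processing notes they were made with Cell Ranger 2.1.0 and the build GRCg6a, and the fewest genes in a deposited barcode was 601. Barcodes were scored against simulated doublets within each library, and the highest-scoring ones were left out at 0.8% per 1000 barcodes (8427 of 95805). Cells of a stage were clustered on 40 principal components of 2000 variable genes, without the 5 members, with 20 neighbours and Leiden resolution 1 (leidenalg 0.10.2, igraph 0.11.9, Python 3.11.15). A cluster was named by the mean of its 4 highest markers of a class, with at least 3 markers at 50 CPM. This left 2.70% of E18, 3.64% of E16 and 23.3% of E12 cells unnamed. A cluster of horizontal cell-like cells was ISL1-high at 1000 CPM of ISL1 or more, and led by another retinal class with 2 or more of that class's markers, and more than of horizontal cells, among its 10 leading genes. Blood markers did not count for this. A difference from the study may come from these rebuilt names.

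UMI counts were summed per library and class and tested by edgeR's quasi-likelihood test (R 4.3.3, edgeR 4.0.16), with filterByExpr, TMM scaling and Benjamini-Hochberg adjustment over all genes tested. Calls were made at an adjusted p under 0.05, with a 2-fold minimum for stage. The difference between classes was the class by stage term with the library as a block, and the HINTW comparison also had the library as a block. The model was tested on simulated data with known changes. Alternatives were DESeq2 1.42.0, no TMM, no filter, all barcodes, members used in clustering, thinned cells, other resolutions, each library left out, and the sets of cells named in the text. Shares of cells were compared after thinning to 1000 UMIs, leaving out shallower cells (429 to 444 of the E18 and 408 to 482 of the E12 cells per library stayed), by two-sided exact permutation tests. Intervals are exact 95% binomial ones and, like the floors of 3 counts, cover counting error only. Genes beyond the members were named by rule, as the 4 most correlated with each member, and as called genes of 3 lists that did not overlap between stages and reached 50 CPM. Some genes and markers that these rules name are not reported here. The members, lists and types were chosen with earlier results of these data known. Chromosomes came from a RefSeq gene table by symbol.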

Additional observations from a re-analysis of the deposited data

Results flagged for a closer look

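In 3 of 85 groups of 4 libraries, 1 library lay far from the others by Dixon's criterion, which chance alone meets in about 1 in 20 groups. PROX1 in E18 bipolar-like cells was 796.7 CPM in library 2 and 727.6 to 738.7 CPM in the others. ONECUT2 in E18 photoreceptor-like cells was 42.5 CPM in library 3 and 38.2 to 38.8 CPM in the others. ONECUT3 in E12 ISL1-low horizontal cell-like cells was 709.0 CPM in library 4 and 727.8 to 729.2 CPM in the others.

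The stage change of 15 pairs of member and class differed between horizontal cell-like cells and that class by the class by stage term of edgeR (adjusted p under 0.05). Each value is the log2 change in horizontal cell-like cells minus that in the other class. Against amacrine-like cells it was 2.68 for ONECUT1, 1.60 for ONECUT2, 1.02 for ONECUT3, -0.69 for LHX1 and 1.32 for PROX1. Against RGC-like cells it was 1.83 for ONECUT1, 1.59 for ONECUT2, 1.22 for ONECUT3 and 2.87 for PROX1. Against bipolar-like cells it was 0.76 for ONECUT1, 0.84 for ONECUT2, -1.51 for LHX1 and 0.33 for PROX1. Against Muller glia-like cells it was 2.39 for ONECUT1 and 1.12 for PROX1. The LHX1 value against bipolar-like cells rests on 11 UMIs in that class at E12. The ONECUT1 value against Muller glia-like cells rests on 12 there. Against bipolar-like cells the ONECUT1 values depend on E18 bipolar-like cluster 5 (703 cells), which held 84.5% of the ONECUT1 UMIs of that class. Without the horizontal cell-like clusters led by markers of another class, ONECUT3 against RGC-like cells (0.75, adjusted p = 0.096) and ONECUT1 (0.19) and PROX1 (0.06) against bipolar-like cells no longer passed.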

How the results depend on the processing

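Every stage difference of the 5 members in horizontal cell-like cells kept its direction in each alternative run, except LHX1 in ISL1-low cells without the cluster led by blood genes (0.04, adjusted p = 0.73 by edgeR). ONECUT3 passed 2-fold without TMM (1.03) and LHX1 in ISL1-high cells (-6.79). Without TMM the median of all genes was 0.13 in horizontal, 0.20 in amacrine, 0.15 in RGC, 0.11 in bipolar, 0.53 in photoreceptor and -0.20 in Muller glia-like cells (-0.02 to 0.08 with it). The genes called higher and lower were then 1937 and 534 in amacrine (1465 and 850 with TMM), 1410 and 566 in RGC (1090 and 790), 2177 and 448 in photoreceptor (1291 and 824) and 1337 and 1602 in Muller glia-like cells (1656 and 1072), and PROX1 in photoreceptor-like cells had an adjusted p of 0.011 by edgeR (log2 0.99). Class differences called higher and lower were 868 and 2570 against photoreceptor (1299 and 1871) and 3397 and 1506 against Muller glia-like cells (1959 and 2376). The 1725 genes called in horizontal cell-like cells became 2807 with no filter, 752 in ISL1-high and 1065 in ISL1-low cells, 1041 without the clusters led by another class or by blood genes, 745 in ISL1-low cells without the blood-led cluster, and 1787 to 1900 with a library left out. Photoreceptor-like calls ranged from 1314 to 2367 with a library left out (2115 in all, with the lowest values each without an E18 library). Class differences without the clusters led by other markers numbered 2047 (amacrine), 1873 (RGC), 1817 (bipolar), 1973 (photoreceptor) and 2842 (Muller glia). Dorsal-ventral RGC calls were 613 by DESeq2 and 869 to 1589 with a library left out, and amacrine calls 45 by DESeq2, 216 with no filter and 96 to 186 with a library left out (186 without dorsal replicate 1). ONECUT1 in bipolar-like cells reversed to -1.41 with the members used in clustering, where the ONECUT1-high cluster left the class.

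Equal replicate numbers did not pair libraries (correlations of deviations -0.066 to 0.055). With a replicate block 2054 genes were called in horizontal and 229 dorsal-ventral in amacrine-like cells, and no call of a member in horizontal cell-like cells changed.

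Of the shares, 0 passed adjustment within ISL1-high and 0 within ISL1-low clusters (23 over the class), although 9 of 27 and 16 of 28 had an unadjusted exact permutation p of 0.0286, the smallest possible. In E18 minus E12 percentage points, all 3 ONECUT genes gave 30.7 in ISL1-high and 30.3 in ISL1-low cells, at least 1 with PROX1 10.9 and 12.1, LHX1 with ISL1 -52.6 and -2.89, and all 5 members -5.56 (reversed) and 16.8. With a library left out these shares over the class ranged from 34.3 to 36.4, 25.1 to 27.6, -6.50 to -5.98 and 8.79 to 9.45. ONECUT1 with ONECUT2, LHX1 and PROX1 reversed without thinning (-1.29), without clusters led by other markers (-1.34) and in ISL1-high cells (-11.2). ONECUT2 with ONECUT3 (0.39) and ONECUT3 with PROX1 (1.61) reversed in ISL1-high cells. With 2 UMIs needed, ONECUT2 with ONECUT3 and LHX1 (0.053), ONECUT2 with ONECUT3 and PROX1 (2.35), ONECUT2 with PROX1 (1.18) and ONECUT3 with PROX1 (0.94) reversed. In ISL1-low cells LHX1 without ISL1 (4.16) and ISL1 without LHX1 (-1.07) reversed. Except where the construction shows it, the cause was not tested. Depth limits all shares, since a member without a UMI may be expressed.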
